A study of Mus musculus with 2 samples.

Results

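The exons described here are the annotated internal exons of 3 to 30 nt, the size range of microexons, in the adrenal gland of the mouse. They were chosen by length and by coverage. An exon entered when at least 20 reads in each library either held it, with both of its ends exactly as annotated and inside the read's exon chain, or skipped it, with an intron of the same gene that spans it. Of 2843 annotated internal exons of this size, 406 in 332 genes met the rule, among 40179 internal exons of any length that met it and 212963 that are annotated. In all, 77 members were of 3 to 15 nt and 329 of 16 to 30 nt, the latter in 286 genes, and 57 genes had more than 1 member. The choice of members used only the total of holding and skipping reads. Inclusion, the percentage of those reads that hold the exon, was not part of the rule, but every value of inclusion comes from the same reads.

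The study sequenced long RNA reads from adrenal gland tissue. The animals were males of B6CASTF1/J, a first-generation hybrid strain, and were 2 months old. It has 1 group of 2 libraries, called replicate 1 and replicate 2, with no treatment and no second tissue, so no comparison of conditions exists. The biosample entries number their animals differently, but the library descriptions give the same animal number for both and the donor entry is shared. The spread between the libraries may therefore be technical. They held 824186 and 656786 reads outside the spike-in controls. Markers of the steroid-producing cortex took 7.28% and 7.73% of reads, those of the catecholamine-producing chromaffin cells 1.14% and 1.26%, and those of neurons 0.00813% and 0.00883%. Adipocyte markers took 0.538% in replicate 1 and 0.209% in replicate 2, and their part in any value below was not tested. In whole tissue, fewer cells of a type and less RNA per cell cannot be told apart.

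Microexons are too short to hold many splicing enhancers, and in neurons and endocrine cells many of them are switched on by the SR-related proteins SRRM4 and SRRM3, while PTBP1 represses many of them in other cells. Most neural microexons keep the reading frame and add a few residues at the surface of proteins of vesicle traffic, the cytoskeleton and synapses. Chromaffin cells come from the neural crest and release hormone from granules by the same fusion machinery as neurons, which makes the gland a mixture of a neuroendocrine and a non-neural compartment.

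Sequences are given for the exons on which the results turn, as spliced in an annotated transcript, 5′ to 3′, with the small exon in capitals between 12 bases of each neighbouring exon, on mm10 from the GENCODE transcripts. The first set holds exons whose reads fell into both forms, or, for the upstream 12 nt exon of Dnm2, its unused alternative. Dnm2 encodes the endocytic GTPase dynamin 2, Anxa6 a calcium-dependent membrane-binding annexin, Acly the enzyme that makes cytosolic acetyl-CoA from citrate, Mark2 and Mark3 kinases that act on microtubule-associated proteins, and Picalm a clathrin assembly protein.
Dnm2 12 nt, chr9:21490658-21490669, plus strand: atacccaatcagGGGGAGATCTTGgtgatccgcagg
Dnm2 12 nt, chr9:21489910-21489921, plus strand: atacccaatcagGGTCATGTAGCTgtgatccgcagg
Anxa6 18 nt, chr11:54987051-54987068, minus strand: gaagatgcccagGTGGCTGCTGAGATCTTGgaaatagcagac
Picalm 24 nt, chr7:90194273-90194296, plus strand: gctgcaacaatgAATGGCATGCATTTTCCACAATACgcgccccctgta
Mark2 27 nt, chr19:7279986-7280012, minus strand: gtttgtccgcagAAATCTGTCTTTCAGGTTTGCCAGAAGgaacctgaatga
Mark3 27 nt, chr12:111651958-111651984, plus strand: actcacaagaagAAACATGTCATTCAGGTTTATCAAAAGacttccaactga
Acly 30 nt, chr11:100503160-100503189, minus strand: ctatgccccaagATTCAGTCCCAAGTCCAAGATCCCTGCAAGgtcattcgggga

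The next set holds small exons of the neural list that almost all reads skipped through an annotated intron. Mef2d encodes a transcription factor of muscle and nerve, and Dctn1 the large dynactin subunit that links dynein to microtubules.
Mef2d 21 nt, chr3:88161781-88161801, plus strand: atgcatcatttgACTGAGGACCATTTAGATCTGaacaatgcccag
Dctn1 21 nt, chr6:83183936-83183956, plus strand: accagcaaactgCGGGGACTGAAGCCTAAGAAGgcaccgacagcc
Dctn1 18 nt, chr6:83186428-83186445, plus strand: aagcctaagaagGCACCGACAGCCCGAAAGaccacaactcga
Dctn1 21 nt, chr6:83187764-83187784, plus strand: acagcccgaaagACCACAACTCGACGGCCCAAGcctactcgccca

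The last set holds exons that no annotated transcript skips and that almost no read held. Hnrnpk encodes an RNA-binding protein of the hnRNP family, Capn2 the large subunit of a calcium-activated protease and Vav2 a guanine nucleotide exchange factor.
Hnrnpk 16 nt, chr13:58393853-58393868, minus strand: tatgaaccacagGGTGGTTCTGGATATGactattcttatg
Capn2 12 nt, chr1:182482536-182482547, minus strand: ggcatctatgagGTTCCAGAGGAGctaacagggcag
Vav2 17 nt, chr2:27279191-27279207, minus strand: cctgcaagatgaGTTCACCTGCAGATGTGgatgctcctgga

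Inclusion was higher in longer exons. Of the 77 exons of 3 to 15 nt, 74 had no holding read in either library and 75 were under 10% in both. For the 74, the limits that a count of 0 allows, 3 reads of each library's total, ran from 0.698% to 15% and cover counting error only. Of the 329 exons of 16 to 30 nt, 105 (31.9%) were under 10% in both libraries, 22 (6.69%) lay at 10% to 90% in both, 190 (57.8%) were over 90% in both and 12 crossed a boundary. Their median inclusion was 97.1% in replicate 1 and 96.4% in replicate 2. Among the 39769 longer exons with the reads asked for, 4.36% were under 10% and 93.3% over 90%.

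Within the 16 to 30 nt class the change was steep. At 16 to 20 nt, 27 of 42 exons were under 10% in both libraries and 10 over 90%. At 21 to 25 nt the counts were 51 and 54 of 113, and at 26 to 30 nt they were 27 and 126 of 174. The next class, 31 to 40 nt, still had 12.5% of its 600 exons under 10%, against 5.11% of the 8356 exons of 61 to 90 nt. Single lengths did not follow each other smoothly. Of the lengths that keep the frame, 10 of 15 exons were under 10% at 18 nt, 20 of 23 at 21 nt, 19 of 36 at 24 nt, 10 of 57 at 27 nt and 7 of 53 at 30 nt. Of the other lengths up to 25 nt, 2 of 2 were under 10% at 16 nt, 5 of 6 at 17 nt, 2 of 5 at 19 nt, 8 of 14 at 20 nt, 3 of 13 at 22 nt, 4 of 15 at 23 nt and 5 of 26 at 25 nt.

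**Figure D1:**
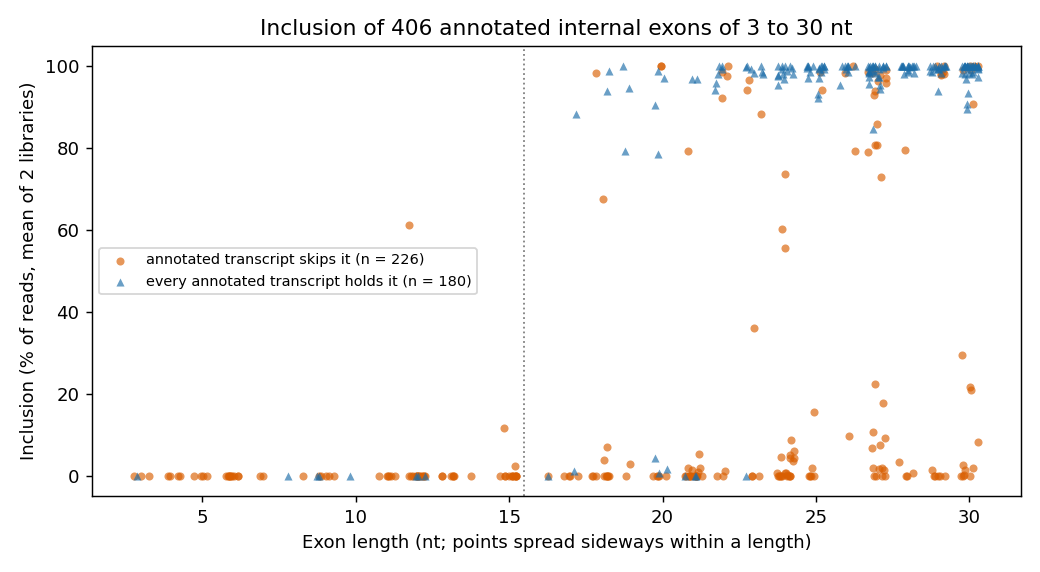
Mean inclusion of the 2 libraries (percent of reads that hold the exon, vertical) against exon length in nt (horizontal) for the 406 exons. Triangles mark the 180 exons that no annotated transcript skips and circles the 226 that an annotated transcript skips. The key calls the former held by every annotated transcript, but transcripts that overlap an exon with other ends were not counted. To the left of the dotted line at 15.5 nt nearly all points of both kinds lie at 0, the Dnm2 exon near 61% being the highest, and from 26 nt on no triangle lies low.

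The annotation gave a reference for these levels. Exons that no annotated transcript of the gene skips were over 90% in 32900 of 33007 cases when longer than 30 nt, and none of those was under 10%. Transcripts that overlap an exon with other ends were not counted as skipping it. At 26 to 30 nt, 104 of 107 such exons were over 90% and none under 10%. At 21 to 25 nt, 46 of 50 were over 90% and 4 under 10%. At 16 to 20 nt, 7 of 15 were over 90% and 5 under 10%, and at 3 to 15 nt all 8 were under 10%. Low values for exons without an annotated skipping form were thus found only among the members of 25 nt or less. The 157 exons of 16 to 30 nt with an annotated skipping transcript had a median inclusion of 1.79%, and the 172 without one a median of 99.6%.

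The reads that skipped these exons were of different kinds. Their shares here sum over exons, so a read that skipped more than 1 exon was counted for each. A skipping read could use an intron that the annotation contains, could join annotated splice sites in a new way, or could have an intron with an end at no annotated splice site of the gene. Ends of the last kind made up 22.5% of skipping reads over exons of 3 to 15 nt, 36.6% over those of 16 to 20 nt, 11.1% at 21 to 25 nt and 1.80% at 26 to 30 nt. Over exons longer than 30 nt they made up 1.51%. Where the end was new, the neighbouring exons of the read were often longer than annotated. At 16 to 20 nt, 83.9% of the new-end reads carried extra flanking bases whose number lay within 5 of the length of the missing exon, against 0.916% over exons longer than 30 nt. The share was 96.8% at 3 to 9 nt, 31.8% at 10 to 15 nt, 35.3% at 21 to 25 nt and 19.9% at 26 to 30 nt, so it did not follow length evenly. With a fixed margin of 5 nt, almost any short extension matches an exon of 3 to 9 nt, while one over 30 nt needs a long extension. The rule thus partly sets the differences between classes. In Pitpna, the same 316 reads with 4 extra bases matched the 8 nt exon but not the 11 nt exon. The exons of Hnrnpk, Chmp1a and Suds3 gave 925, 393 and 347 of the 2510 new-end reads at 16 to 20 nt, and without these 3 exons the share was 54.2% of 845.

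**Figure D2:**
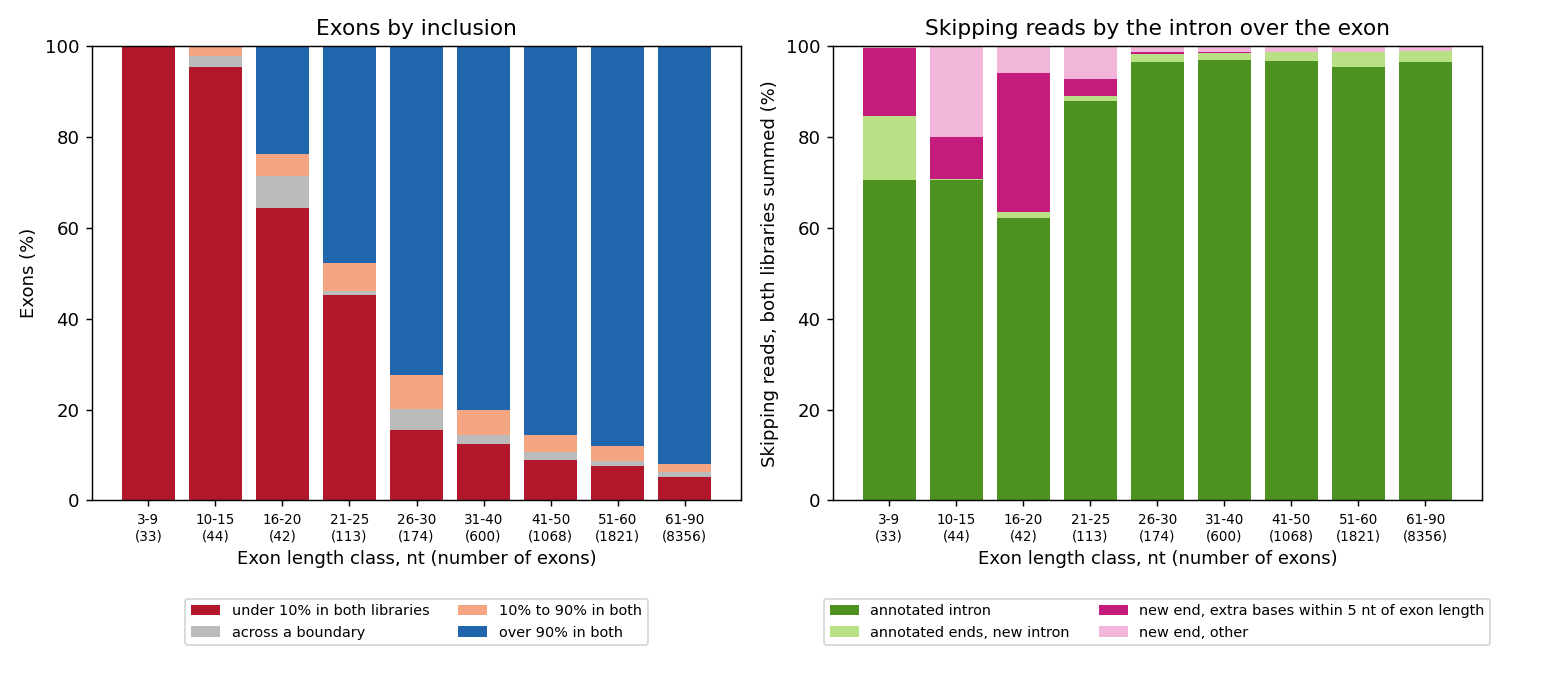
Left, the share of exons (percent) by inclusion in both libraries for each length class in nt, with the number of exons in brackets. Right, the share of skipping reads of both libraries summed (percent) by the kind of intron over the exon. A read is counted once for each exon it skips. New ends take 36.6% at 16 to 20 nt and 1.80% at 26 to 30 nt.

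The 17 members that no annotated transcript skips and that under 10% of reads held lay in 14 genes, and all 17 are in an APPRIS principal isoform, the transcript that annotation marks as the main protein-coding form. They gave 3295 skipping counts, of which 3277 (99.5%) had a new intron end. In 2854 of the counts (86.6%) the extra bases matched the exon's length within 5 nt. A read that skipped more than 1 of these exons, as in Nudt5 and Col6a1, was counted for each. Of the 17 exons, 8 were of 3 to 15 nt, where this margin is wide for the exon. For the 9 of 16 to 30 nt, 1922 of 2357 skipping counts (81.5%) matched. In Hnrnpk, whose 16 nt exon is in 8 annotated transcripts and skipped by none, 0 of 509 reads in replicate 1 and 0 of 428 in replicate 2 held the exon. The limits a count of 0 allows are 0.589% and 0.701%. Of the 937 skipping reads, 907 used the same new intron, which began 16 bases downstream of the annotated end of the upstream exon. Those 16 bases of intron, GTTGAGTATCAATAAT, equal the exon GGTGGTTCTGGATATG at 8 of 16 positions. Such matches varied over the members with readable extensions. They were 4 of 15 for the 15 nt exon of Sh3glb2, 2 of 8 for Mrpl33 19 nt, 6 of 18 for Rps24 20 nt and 7 of 15 for Suds3 22 nt. Extensions of 4 bases ran from 0 of 4 in Pitpna to 3 of 4 in Lmf1. For Hnrnpk, neither library had a read with the annotated exon.

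Capn2 had the same form. None of 116 and 102 reads held its 12 nt exon, and 217 of 218 skipping reads ran 17 bases past the annotated end of the upstream exon. These bases, GTACCGGCAGAGGATGG, equal the exon GTTCCAGAGGAG at 8 of 12 positions when both are read from their first base. In Capn1, the paralogous protease subunit, 0 of 34 and 0 of 47 reads held the 12 nt exon, and all 81 skipping reads carried 11 extra bases. In Pitpnb, a phosphatidylinositol transfer protein, 0 of 73 and 0 of 68 reads held the 8 nt exon, and 140 of 141 carried 8 extra bases. In Uchl1, a deubiquitinase abundant in neurons and neuroendocrine cells, 0 of 49 and 0 of 35 reads held the 12 nt exon and all 84 carried 9 extra bases. These 4 exons thus had no holding read, and nearly every skipping read was longer at a neighbouring exon.

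Some longer exons of the same kind were held now and then, and others by no read. No read of 50 and 62 held the 21 nt exon of Gramd1a, and none of 27 and 22 the 23 nt exon of Trim11. The 21 nt exons of Col6a1 were held by none of 83 and 119 reads and none of 83 and 118. For the 20 nt exon of Chmp1a, a subunit of the ESCRT-III membrane-scission complex, 10 of 191 and 8 of 220 reads held it, and 385 of 393 skipping reads carried 25 extra bases. For the 20 nt exon of Suds3, a subunit of the Sin3 histone deacetylase complex, 2 of 176 and 0 of 173 reads held it and 344 of 347 carried 20 extra bases, 4 on the upstream and 16 on the downstream exon. The 17 nt exon of Vav2 was held by 0 of 20 and 1 of 40 reads, and all 59 skipping reads carried 18 extra bases. The 22 nt exon that follows it in Vav2 was held by all 20 and all 40 reads. In Vav2, the exon chains of these reads thus held the 22 nt exon and, but for 1 read, skipped the adjacent 17 nt exon. Whether the molecules with extra flanking bases lacked the exon's own bases cannot be read from exon chains and was not tested.

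The shortest exons with the most reads were skipped by every read. In Psap, the precursor of the lysosomal saposins, the 9 nt and 5 nt exons were held by 0 of 381 and 0 of 430 reads, and 784 of the skipping reads used an annotated intron. In Spp1, which encodes osteopontin, 0 of 319 and 0 of 204 reads held the 3 nt exon, and in Phb2, a prohibitin of the mitochondrial inner membrane, 0 of 176 and 0 of 150 held the 6 nt exon. In Ergic3, a cargo receptor between the endoplasmic reticulum and Golgi, none of 269 and 193 reads held the 15 nt exon. For these exons nearly all skipping reads used annotated introns. Idh3g, a subunit of isocitrate dehydrogenase, differed: 0 of 309 and 0 of 196 reads held its 12 nt exon, but 459 of 505 skipping reads had 4 extra bases on the upstream exon. Those 4 bases are GTAA and equal the start of the exon at 1 of 4 positions. The 11 nt exon of Pitpna, held by 0 of 151 and 0 of 165 reads, was skipped by 316 reads that all had 4 extra bases, GTGA. These equal the start of that exon at 0 of 4 positions.

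Dnm2 was the exception among exons of 3 to 15 nt. Its 12 nt exon at chr9:21490658-21490669 was held by 70 of 115 reads in replicate 1 (60.9%, 95% Wilson interval 51.7% to 69.3%) and 63 of 102 in replicate 2 (61.8%, 52.1% to 70.6%). Only 1 of the 84 skipping reads had a new intron end. A second annotated 12 nt exon upstream, at chr9:21489910-21489921, joins the same neighbouring exons and equals the first at 4 of 12 positions, and 0 of 115 and 0 of 102 reads held it. A 30 nt exon further upstream was held by 0 of the same reads. The exon chains of the Dnm2 reads thus had the downstream 12 nt exon or no annotated small exon at this place. The other 2 members of this length with a holding read were the 15 nt exons of Snap91, held by 7 of 49 and 3 of 33 reads, and of Tpd52l1, held by 0 of 21 and 1 of 21.

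The list of genes known for neural microexons, which was written with earlier results of these data known, had 222 annotated exons of 3 to 30 nt in 101 genes, of which 28 in 18 genes were members. In all, 22 of the 28 were under 10% in both libraries, 4 at 10% to 90%, 1 over 90% and 1 across. Over all 406 members, 180 (44.3%) were under 10%. Of the 28, 10 were of 3 to 15 nt, a length at which 75 of all 77 members were under 10%. Of the 18 of 16 to 30 nt, 13 were under 10%, with a median of 1.63%, beside 31.9% under 10% and a median of 97.0% over all members of this length. Of the 18, 16 have an annotated skipping transcript, and 12 of these 16 (75%) were under 10%, with a median of 1.63%. Over all 157 members of this length with such a transcript, 96 (61.1%) were under 10%, with a median of 1.79%, so the list lay near the members that are like it in the annotation. Dctn1 had 4 of the members. Its 21 nt exon at chr6:83183936-83183956 was held by 3 of 159 and 2 of 196 reads, its 18 nt exon by 0 of 159 and 0 of 196, and its 21 nt exon at chr6:83187764-83187784 by 5 of 161 and 1 of 196. The 15 nt exon of Dctn1 was held by 0 of 184 and 0 of 219. For the 18 nt and both 21 nt exons, 346 skipping reads used an annotated intron and none had a new end.

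The other low exons of this list included those of microtubule, scaffold and membrane-traffic genes and of the transcription factor gene Mef2d. In Clip1, which binds growing microtubule ends, no read of 40 and 27 held the 21 nt exon, and in Dlg1, a membrane scaffold, none of 31 and 37 held the 21 nt exon. In Ppfia1, which encodes the scaffold liprin alpha-1, the 27 nt exon was held by 2 of 34 and 3 of 39 reads and the 30 nt exon by 0 of 34 and 0 of 36. In Mef2d, 1 of 27 and 0 of 21 reads held the 21 nt exon. In Bin1, a membrane-bending protein of endocytosis, 3 of 78 and 3 of 54 held the 24 nt exon. All of these skipping reads but 1 in Clip1 used annotated splice sites at both ends.

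Genes of this list also had members of 3 to 15 nt that no read held, as were 74 of all 77 members of that length. The 12 nt exon of Kdm1a, a histone demethylase, was held by 0 of 55 and 0 of 44 reads, and the 6 nt exon of Apbb1, an adaptor that binds the amyloid precursor protein, by 0 of 37 and 0 of 28. The 6 nt exon of Pacsin2, an endocytic membrane-bending protein, had 0 of 98 and 0 of 115. Annotated introns carried all but 1 of these skipping reads.

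Exons of the neural list at intermediate or high levels were Picalm, Ppfibp1, Trappc9, Dnm2, Sgce and the 22 nt exon of Vav2. The Picalm 24 nt exon was held by 21 of 28 reads (75%) and 21 of 29 (72.4%). Ppfibp1, a liprin beta, had 7 of 23 (30.4%) and 4 of 31 (12.9%) for its 30 nt exon, and Trappc9, a subunit of the TRAPP vesicle-tethering complex, 6 of 55 (10.9%) and 14 of 57 (24.6%) for its 27 nt exon. The intervals of the 2 libraries overlapped for each of these exons. Sgce, the epsilon-sarcoglycan, had 51 of 53 (96.2%) and 35 of 39 (89.7%) for its 27 nt exon.

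The list of genes of regulated secretion gave 6 members in 4 genes, from 71 annotated exons of this size in 33 genes. Snap91, the clathrin assembly protein AP180 of nerve terminals, held 3 of them, with the 6 nt and 28 nt exons next to each other. Its 28 nt exon was held by all 49 and all 33 reads, its 15 nt exon by 7 of 49 and 3 of 33, and its 6 nt exon by 0 of 49 and 0 of 33. The 21 nt exon of Vti1a, a SNARE of endosomal traffic, was held by 0 of 23 and 0 of 20 reads. Bin1 and Uchl1, described above, were the other 2. The 12 chromaffin marker genes have 1 annotated exon of this size and no member, so their transcripts give no value here. Stx2, a plasma-membrane syntaxin of the neural list, had 0 of 21 and 0 of 33 reads for its 28 nt exon.

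**Figure D3:**
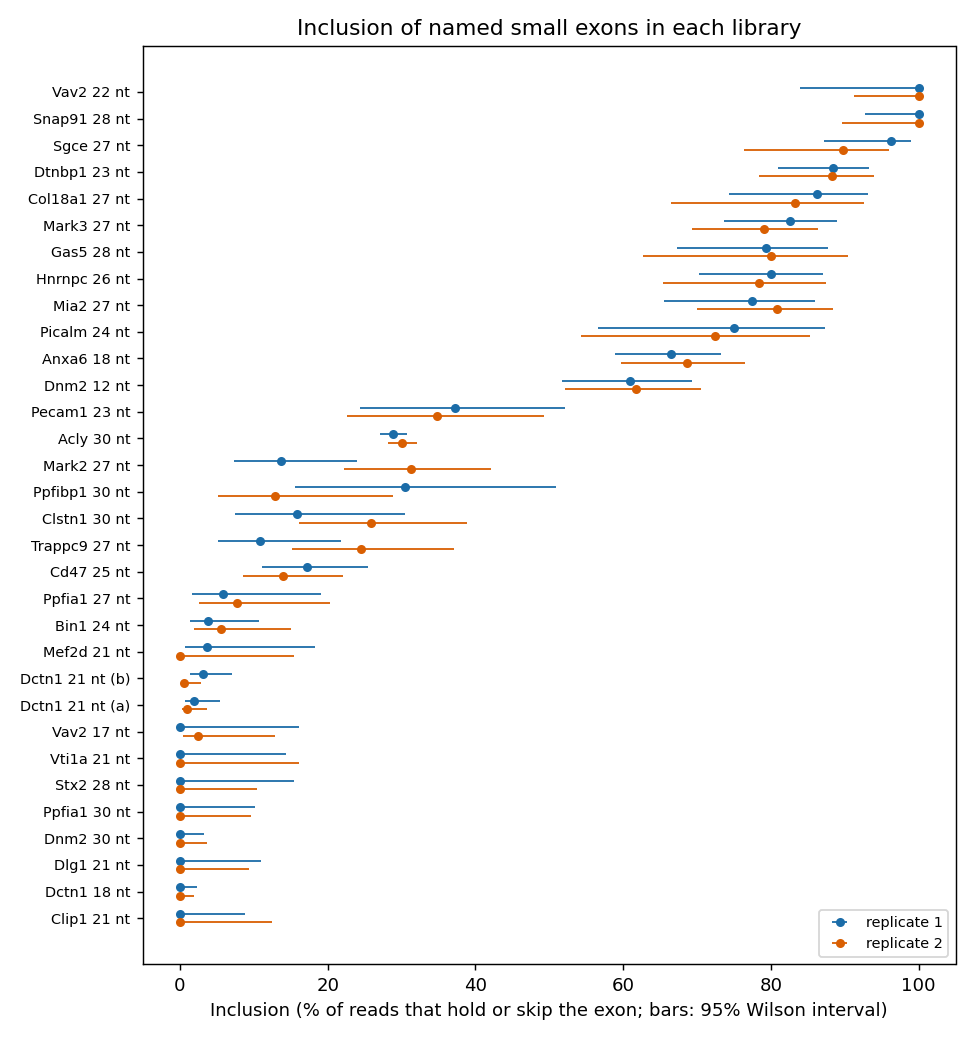
Inclusion (percent of reads that hold or skip the exon, horizontal) of the named exons of 16 to 30 nt and of the 12 nt exon of Dnm2, with a point for each library and bars for the 95% Wilson interval, which covers counting error only. Exons outside the gene lists were chosen at 10% to 90%, so the lower end shows list exons by choice, from Clip1 at 0 to the 27 nt exon of Ppfia1 near 7%, and letters a and b mark the 21 nt exons of Dctn1 in genome order.

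Of the 12 intermediate exons with the most reads outside these lists, that of Acly was by far the most deeply read. Its 30 nt exon was held by 675 of 2342 reads in replicate 1 (28.8%, interval 27.0% to 30.7%) and 639 of 2121 in replicate 2 (30.1%, 28.2% to 32.1%), and 3142 of 3149 skipping reads used an annotated intron. Anxa6 had 107 of 161 (66.5%) and 79 of 115 (68.7%) for its 18 nt exon, with all 90 skipping reads on an annotated intron. Both exons lay at nearly the same level in both libraries.

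The paralogous kinases Mark2 and Mark3 had a 27 nt exon each, equal at 21 of 27 positions, at different levels. In Mark2, 9 of 66 reads (13.6%, interval 7.34% to 23.9%) and 25 of 80 (31.2%, 22.2% to 42.1%) held it. In Mark3, 76 of 92 (82.6%, 73.6% to 89.0%) and 68 of 86 (79.1%, 69.3% to 86.3%) held it. The intervals of the 2 genes did not overlap in either library. The Mark2 exon was also the member with the second smallest p between the libraries, as given below.

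Genes of the cell surface and secretory route followed. Clstn1, a calsyntenin that rides on kinesin cargo, had 6 of 38 (15.8%) and 14 of 54 (25.9%) for its 30 nt exon, and Cd47, the integrin-associated signal against phagocytosis, 18 of 105 (17.1%) and 14 of 100 (14%) for its 25 nt exon. Pecam1, an adhesion molecule of endothelium, had 16 of 43 (37.2%) and 16 of 46 (34.8%) for its 23 nt exon in the part that encodes the cytoplasmic tail. Mia2, which works in cargo export from the endoplasmic reticulum, had 48 of 62 (77.4%) and 55 of 68 (80.9%) for its 27 nt exon. Levels in these genes ran from 14% to 80.9%, and the intervals of the libraries overlapped for each exon.

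The remaining 4 of the 12 were Hnrnpc, Gas5, Dtnbp1 and Col18a1. Hnrnpc, an RNA-binding protein of the hnRNP family, had 68 of 85 (80%) and 40 of 51 (78.4%) for a 26 nt exon in an untranslated region, and Gas5, a long noncoding RNA that hosts snoRNAs, 46 of 58 (79.3%) and 24 of 30 (80%) for a 28 nt exon. The 23 nt exon of Dtnbp1, the lysosome-related organelle protein dysbindin, was held by 92 of 104 and 60 of 68 reads, and 17 of its 20 skipping reads carried 28 extra bases. For the 27 nt exon of Col18a1, a basement-membrane collagen, 44 of 51 and 25 of 30 reads held it, and all 12 skipping reads had a new intron end. With skipping reads limited to annotated introns, the Dtnbp1 and Col18a1 exons were both at 100% and Gas5 at 96.9%.

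Most of the 190 exons over 90% had no annotated skipping transcript. Of them, 188 lie in an APPRIS principal isoform, against 11 of the 22 intermediate exons and 31 of the 105 low ones. Among those with the most reads, the 23 nt exon of Rpl41, which encodes a very small ribosomal protein, was held by 1039 of 1041 and 499 of 500 reads, and the 25 nt exon of Gpx4, a lipid-peroxide-reducing selenoprotein, by all 763 and all 400. The 30 nt exon of Vegfa, an endothelial growth factor, had 351 of 351 and 574 of 576. The 30 nt exon of Ifi27l2a, an interferon-induced gene, had 1168 of 1183 and 567 of 579. The 25 nt exon of Bsg, a chaperone of lactate transporters, had 796 of 861 and 484 of 526. All 107 skipping reads of Bsg had a new intron end, and 95 carried 28 extra bases on the downstream exon. These exons were chosen for mention after their values were seen.

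Exons of a multiple of 3 nt made up 184 of 329 (55.9%) at 16 to 30 nt and 51 of 77 (66.2%) at 3 to 15 nt, against 39.2% of longer exons. At 16 to 30 nt the frame was kept by 66 of 105 low exons (62.9%), 16 of 22 intermediate ones (72.7%) and 93 of 190 high ones (48.9%). Among longer exons it was kept by 39.6%, 57.5% and 38.9%. Coding sequence held 296 of the 329 exons whole, and 20 of the 22 intermediate ones. The introns beside intermediate exons had medians of 2726 nt upstream and 1914.5 nt downstream, against 944 and 760.5 nt for high exons and 1052 and 951 nt for exons longer than 30 nt.

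Reads that span more than 1 member show how they combined. Of 99 pairs of members spanned by the same reads, in 53 genes, 10 were held together by all reads, 20 were skipped together by all, 13 had 1 exon held and the other skipped in all, 3 had only reads with both or neither, and 53 were mixed. Many of the pairs came from the collagen genes Col18a1 and Col6a1. Pairs of 1 gene reuse the same exons and reads, so these counts are not of independent pairs. The pair of 30 nt exons of Hmgn1, a nucleosome-binding protein, was held together by 99 and 52 reads, skipped together by 6 and 7, and split by 1 and 0. All but 1 of the reads that skipped either exon had a new intron end. In Pecam1, the 23 nt and 28 nt exons were held together by 15 and 16 reads, and the 28 nt exon alone by 27 and 29. The 23 nt exon was thus held or skipped in exon chains of Pecam1 reads that all held the 28 nt exon. In Mia2, 48 and 53 reads held the 22 nt and 27 nt exons, 14 and 13 only the first and 0 and 2 only the second. In Mtmr1, a lipid phosphatase of the myotubularin family, the 24 nt exon came without the 27 nt exon in 16 and 14 reads, with it in 1 and 0, and neither was held in 10 and 15. The Mtmr1 exons were thus joined in a single read. In Map2k5, a kinase of the ERK5 cascade, 30 and 28 reads held the 27 nt and 30 nt exons, 3 and 3 only the first by position on the genome and 1 and 1 only the other. In Myl6, a myosin light chain, 462 and 262 reads held the 28 nt exon without the 20 nt one and none held the 20 nt one. In these genes other than Hmgn1, the exon chains of some or all reads thus held 1 small exon without the other.

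The splicing factors that act on microexons were themselves measured. Srrm4 had no read in either library, where 3 reads stand for 3.64 and 4.57 CPM (counts per library total outside the spike-ins, scaled to 1e6 reads), and Srrm3 had 1 and 0. Of the RNA-binding proteins of neurons, Nova1 and Nova2 had 2 and 0 reads each, Rbfox1 2 and 0, Elavl2 0 and 0, Elavl3 1 and 0 and Elavl4 5 and 1. Rbfox2 had 14 and 14 reads, Rbfox3 10 and 11 and Celf4 7 and 6. The repressor Ptbp1 stood at 149 ± 15.2 CPM (SD, n = 2), with 114 and 105 reads, against 9.58 ± 1.53 CPM for its neural paralog Ptbp2 with 7 and 7. Raver1, a partner of PTBP1, had 18 and 14 reads and Ptbp3 5 and 6.

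Other factors of the list with many reads were Mbnl1 at 159 ± 24.5 CPM, Elavl1 at 150 ± 24.1, Khdrbs3 at 137 ± 1.99, U2af2 at 122 ± 8.07, U2af1 at 114 ± 29.6, Mbnl2 at 107 ± 17.1, Hnrnpc at 106 ± 22.3 and Srsf11 at 104 ± 28.0 (SD, n = 2 for each). Qk, Khdrbs1, Tra2b, Rnps1 and Srrm1 lay between 30.7 and 80.6 CPM, and Celf2, Celf1, Celf6, Tra2a and Srrm2 between 13.1 and 25.2. Esrp1 had no read, Esrp2 3 and 2, Khdrbs2 1 and 0, and Celf5 and Mbnl3 0 and 1. Ptbp1, Mbnl1 and Mbnl2 were thus read in both libraries, and Srrm4, Elavl2 and Esrp1 in neither. Levels are given per read, not per length, and are not compared with each other by test.

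Between the 2 libraries, no member was called different. A two-sided Fisher's exact test per exon, adjusted by Benjamini-Hochberg over all 40179 exons and called at an adjusted p under 0.05 with at least 10 percentage points, called 0 of 406 members, beside 0.00249% of all exons (1 exon). At an unadjusted p under 0.05 there were 3 of 406 members by Fisher's exact test, beside 81 of all 40179 exons. By a chi-square test there were 2 members, beside 49 of all exons. The 3 by Fisher's exact test are given as a description. These were Suds3 22 nt (158 of 175 and 168 of 171, 90.3% and 98.2%, exact p = 0.00196), Mark2 27 nt (exact p = 0.0175) and Rnf185 19 nt (23 of 25 and 16 of 24, 92% and 66.7%, exact p = 0.0374), each with an adjusted p of 1. Rnf185, a ubiquitin ligase of the endoplasmic reticulum, had the largest difference of any member, 25.3 points. The test compares these 2 libraries only. At the 28 reads of Picalm in replicate 1 the interval ran from 56.6% to 87.3%, which shows the counting error of 1 library only. It does not give the difference that the adjusted test could call. The 25.3 points of Rnf185 were not called, so the absence of calls does not exclude large differences at such depth.

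**Figure D4:**
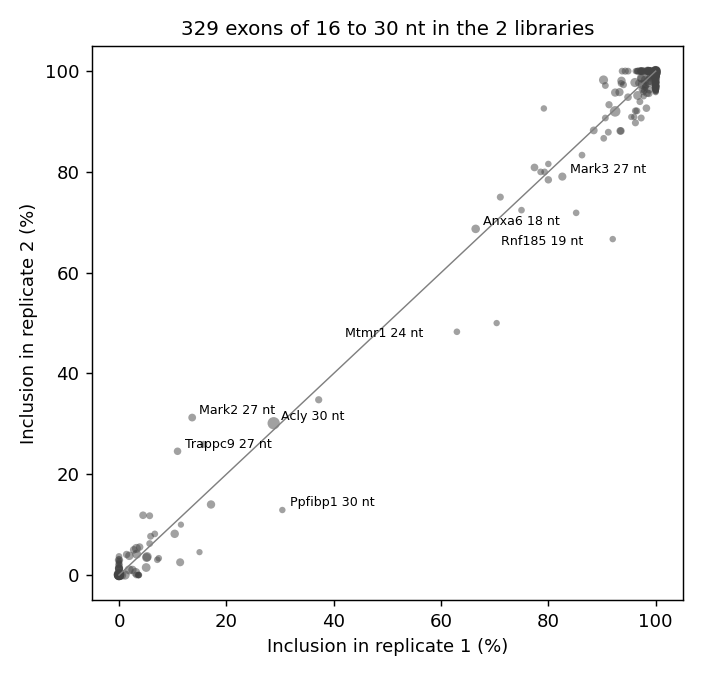
Inclusion of the 329 exons of 16 to 30 nt in replicate 1 (percent, horizontal) and replicate 2 (percent, vertical), with larger points for more reads and a line at equal values. Most points lie at the corners near 0 and 100, Acly sits on the line near 29%, and Rnf185 (92% and 66.7%) lies farthest from it.

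The threshold of 20 reads left out exons of the same kinds. With 19 reads in the shallower library, the 3 nt exon of Map4k5, the 8 nt exon of Gstt3, the 9 nt exon of Kif3a and the 13 nt exon of Mark4 had no holding read, and the 25 nt exon of Dpy19l1 and the 29 nt exon of Eml1 were held by all. With 20 reads, the 13 nt and 25 nt exons of Yap1 had 0 of 32 and 0 of 20, and the 26 nt exon of Ube2a had 41 of 41 and 20 of 20.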

How the data were processed

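Long reads of total RNA from adrenal glands were deposited as 1 table of read counts per transcript model and 1 annotation of the models for each library. Per the file headers and the deposited notes, the authors built the models with TALON on mm10 with the GENCODE M21 annotation. The values are raw counts, each library was handled alone, and the aligner is not stated in the sources used here. Members and gene lists were chosen with earlier results of these data known. Reads on spike-in controls (5770 and 5196) were left out of CPM. A model holds an exon if it contains it internally with both ends exact, and skips it if an intron of a model of the same gene spans it; reads with other overlaps count in neither. Extra bases are those by which the 2 flanking exons of a skipping read exceed the nearest annotated ends, matched to the exon length within 5 nt. Exon counting and the test were checked on simulated data. Inclusion intervals are 95% Wilson intervals; reads carry no molecular identifiers, so intervals and limits cover counting error only. Python 3.11.15, numpy 2.4.6 and scipy 1.17.1 were used. Sequences come from the GENCODE transcripts of mm10, whose lengths equalled the deposited exon chains for all 141767 transcripts; no letters are given for chromosome 18. Exons named are all 16 to 30 nt members of the neural microexon and secretion lists, the 12 other members of that length at 10% to 90% with most reads, the 3 to 15 nt members at 10% or more in each library and the 8 with most reads, members beside the read threshold, member pairs and all splicing regulators of the list. Others were chosen after their values were seen. Alternatives changed the reads that count as holding or skipping, the model classes, the read minimum, exons with shared ends, the test and the libraries.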

Additional observations from a re-analysis of the deposited data

Results flagged for a closer look

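Small internal exons that the annotation lacks were outside the rule, and 212 of 3 to 30 nt were read in either library, 20 in both and 3 by at least 5 reads in each. A 25 nt exon of Ptcd3, a mitochondrial translation factor, at chr6:71889341-71889365 had 46 reads in replicate 1 and 43 in replicate 2 and none that skipped it. It shares an end with an annotated exon from which it differs by 4 nt. A 30 nt exon of 1520401A03Rik at chr17:23713809-23713838 was held by 12 and 21 reads and skipped by 2 and 7. A 30 nt exon of Cpb1, a carboxypeptidase gene, at chr3:20285493-20285522 was held by 5 and 10 reads and skipped by 2 and 3. All 3 were noted because they lie in data that the rule does not use and exceed the 3 reads that a count of 0 allows, in both libraries.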

How the results depend on the processing

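The number of members, their median and the intermediate exons stayed within 1.5 times or the spread between libraries under 3 alternatives. These were counting holding and skipping models of any gene on the strand, leaving out the genomic class, and leaving out exons that share an end. With annotated models only, 38 exons of 3 to 15 nt remained measurable, the median of the 16 to 30 nt exons was 100% and 10 were intermediate; by construction this drops every read with a new intron end. With skipping reads limited to annotated introns the median was 100%, and with both ends at annotated splice sites, an alternative chosen after seeing the data, it was 99.7%. Also chosen after seeing the data, the median was 1.79% for exons with an annotated skipping transcript and 99.6% for the others. A minimum of 50 reads left 149 exons of 16 to 30 nt, 41 of 3 to 15 nt and 9 intermediate ones. Single libraries gave 358 to 366, 80 to 85 and 30 to 31, with medians of 96.3% to 96.9%. The 1 exon called between the libraries, of over 30 nt, became 0 calls by Fisher's exact test in 2 settings. These were holding and skipping models of any gene (88 exons at an unadjusted p under 0.05) and annotated models (23 exons). The cause was not tested. Of the 40 single exons named, annotated models only moved 13 by more than the spread between libraries and kept 20 within it. Either limit on introns moved 3 and kept 35. The rest had no holding or skipping read left in a library under these settings, so they gave no value. Dnm2 12 nt was at 71.5%, Cd47 at 35.3%, and Ppfibp1 and Trappc9 at 0 with annotated models only. No paired analysis was possible because the study has 1 group. At 20 reads a count of 0 allows up to 15%.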
